A study of Mus musculus with 30 samples.

Results

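The 7 genes described here encode the cyclin-dependent kinase inhibitors: Cdkn1a (p21), Cdkn1b (p27) and Cdkn1c (p57) of the Cip/Kip family, and Cdkn2a, Cdkn2b (p15), Cdkn2c (p18) and Cdkn2d of the INK4 family. They were chosen by name and were measured by 9 microarray probe sets that carry 1 gene symbol each. For each gene the probe set with the highest mean over 30 arrays was used, and the second probe sets of Cdkn1a and Cdkn1b served as a check. All 7 lay above the expression limit of 4.92 log2 units, the level under which the lowest 40% of such probe sets fall, and so belong to the 11580 genes tested out of 18194 measured.

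The cells were mouse embryonic fibroblasts (MEFs) of a C57BL/6 and 129SvJ cross, taken from E13.5 embryos and homozygous for p53 LSL, an allele silenced by a stop cassette flanked by loxP sites. An adenovirus carrying Cre recombinase (AdenoCre) given for 24 h removes the cassette and restores p53, and a virus carrying GFP (AdenoGFP) leaves it in place. In the time course, both kinds of cells received 500 nM doxorubicin, a drug that damages DNA, for 1, 3, 6 or 9 h or were left untreated (0 h), with 1 array for each virus and time. In the experiments named lincP21KD and hnRNPKKD every group had AdenoCre for 24 h, then an siRNA for 24 h, then 100 nM doxorubicin for 13 h. The lincP21KD experiment had 3 arrays with siRNA against p53 (siP53), 3 against lincRNA-p21 (siLincp21), a noncoding RNA transcribed next to Cdkn1a, and 2 with control siRNA. The hnRNPKKD experiment had 3 arrays each of siP53, siLincp21, siRNA against the RNA-binding protein hnRNP-K (siHnrnpk) and control siRNA. The control siRNA is titled siScramble in lincP21KD and siRNA control in hnRNPKKD. No siRNA group lacked AdenoCre or doxorubicin. The viruses differ in Cre and GFP as well as in p53, so the share of p53 in a difference between them cannot be told apart from that of the virus.

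Cyclin-dependent kinases drive the cell through G1 into S phase by phosphorylating the retinoblastoma protein, which releases E2F factors. Cip/Kip proteins bind cyclin and kinase together and act mainly on CDK2 complexes, whereas INK4 proteins bind CDK4 and CDK6 and keep them from cyclin D. Cdkn1a is the best known transcriptional target of p53 and a main route from DNA damage to G1 arrest in fibroblasts, and Cdkn2a also encodes ARF, which protects p53 from MDM2.

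The promoters of Cdkn1a and Cdkn1b are shown because these genes moved in opposite directions in both the virus and the siP53 comparisons. RefSeq (GRCm38.p6) held entries for 6 of the 7 genes, with 9 start sites, and each window is the 250 bases before an annotated start. Capitals mark a pair of CATG words, the core letters of a p53 site, with 6 bases of any kind between them, in the upstream Cdkn1a window, and the GC box GGGCGG in the other 2.
Cdkn1a upstream start, chr17:29090729-29090978, + strand: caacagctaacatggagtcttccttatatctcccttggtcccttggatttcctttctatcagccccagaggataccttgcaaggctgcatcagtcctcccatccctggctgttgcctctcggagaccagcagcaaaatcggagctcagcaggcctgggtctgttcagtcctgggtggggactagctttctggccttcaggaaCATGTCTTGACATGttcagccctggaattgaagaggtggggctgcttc
Cdkn1a downstream start, chr17:29093519-29093768, + strand: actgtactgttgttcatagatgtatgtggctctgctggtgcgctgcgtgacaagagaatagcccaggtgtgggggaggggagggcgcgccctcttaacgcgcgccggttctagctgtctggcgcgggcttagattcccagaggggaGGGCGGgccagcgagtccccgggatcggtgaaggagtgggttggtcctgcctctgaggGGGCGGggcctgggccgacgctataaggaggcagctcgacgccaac
Cdkn1b, chr6:134920151-134920400, + strand: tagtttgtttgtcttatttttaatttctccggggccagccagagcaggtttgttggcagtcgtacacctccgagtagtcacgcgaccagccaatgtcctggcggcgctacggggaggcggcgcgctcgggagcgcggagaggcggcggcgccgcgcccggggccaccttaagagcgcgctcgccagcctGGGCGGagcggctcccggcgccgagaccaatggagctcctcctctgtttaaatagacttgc

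The first motif searched, the p53 consensus of 2 adjoining half-sites without spacer, matched in 0 of the 9 windows of these genes, and in 3 of 32817 windows of this length over all genes (0.00914%). The spaced CATG pair was searched only after the Cdkn1a sequence had been read. It reads the same on both strands, occurred in 160 windows (0.488%), and among the 9 windows matched only the upstream one of Cdkn1a, where it begins 48 bases before the start. The E2F words TTTGGCGC, TTTCCCGC, TTTCGCGC and TTTGCCGC, read on both strands, matched in 1 of the 9 windows, that of a Cdkn2a start, against 1.86% of all windows. The GC box, read on both strands, matched in 5 of the 9 windows against 32.7% of all, and no motif here overlaps another in the printed windows. These matches describe letters and not binding.

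Differences are given on the log2 scale of the deposited values with standard errors from limma, and a gene is called when its p, adjusted over the 11580 genes, is below 0.05. Arrays are not stated to come from separate cultures, so p-values measure only the spread between these arrays, which may be technical, and their small number limits the precision. Groups of 2 or 3 arrays did not overlap for some inhibitor genes that were not called as well. The share of all genes without overlap was not counted. In bulk RNA fewer cells of a kind and less RNA per cell cannot be told apart. Of the fibroblast markers 8 of 8 lay in the top 10% of levels, and none of the markers of 6 other cell types did. The array of siP53 replicate 2 in hnRNPKKD stood apart from its group: its 32 p53 target genes had a median difference from control of -1.37, against -1.85 and -1.91 in replicates 1 and 3. Over all tested genes the median absolute difference from the rest of the group was 0.30 for replicate 2, 0.25 for replicate 3 and 0.11 for replicate 1. The levels of Trp53 and of lincRNA-p21 were not analysed here. Mdm2, a p53 target, fell by 2.36 ± 0.15 (adjusted p = 1.82e-05) with siP53 in lincP21KD and fell by 3.22 ± 0.23 (adjusted p = 8.92e-07) in hnRNPKKD. Hnrnpk stood at 8.38, 8.34 and 9.94 on the siHnrnpk arrays and at 12.68, 12.03 and 12.47 on their controls, and fell by 3.51 ± 0.36 (adjusted p = 2.39e-05).

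In the time course, Cdkn1a was the 1 inhibitor gene that rose with AdenoCre, while Cdkn1b, Cdkn1c and Cdkn2d fell and the other 3 were not called. Over all genes 21.2% were called, 14.4% higher and 6.85% lower. Cdkn1a, whose product inhibits CDK2 complexes and binds PCNA, stood at 8.46, 8.88, 9.20, 8.73 and 9.32 at 0, 1, 3, 6 and 9 h with AdenoGFP. With AdenoCre it stood at 11.96, 12.34, 13.16, 13.22 and 13.15 at the same times. Each AdenoCre array lay above every AdenoGFP array, and the difference was already present in untreated cells. Averaged over the 5 times it was 3.85 ± 0.15, which is 14.4-fold (adjusted p = 4.41e-05). Single pairs of arrays gave 3.50 at 0 h, 4.49 at 6 h and 3.83 at 9 h. The second probe set gave 3.54, 3.94 and 4.53 at these times, so the time of the largest difference depended on the probe set. With AdenoGFP at 6 h the signal was 8.73 on the first probe set and 9.18 on the second. The median over tested genes was 8.30 on that array and 8.48 on the next lowest of the time course.

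Cdkn1b, the inhibitor linked to quiescence, stood at 10.87, 11.01, 10.59, 10.35 and 10.43 with AdenoGFP. With AdenoCre its values were 10.46, 10.31, 9.62, 9.62 and 9.79, lower at each of the 5 times although the ranges over time overlap. The fall was 0.69 ± 0.10 (adjusted p = 0.00331). Cdkn1c, an imprinted gene of the same family, ranged from 9.65 to 10.13 with AdenoGFP and from 9.02 to 9.59 with AdenoCre. These ranges do not overlap, and the gene fell by 0.44 ± 0.09 (adjusted p = 0.0130).

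Among the INK4 genes Cdkn2d was lower with AdenoCre at each time, at 8.41, 8.20, 7.54, 8.02 and 8.21 against 8.80, 8.44, 8.01, 8.49 and 8.86. It fell by 0.44 ± 0.09 (adjusted p = 0.0116). Both series dipped at 3 h, and without that pair the difference was -0.44 (adjusted p = 0.0508), while without time as a block the adjusted p was 0.150. Cdkn2a differed by 0.03 (95% interval -0.33 to 0.38), and its AdenoCre arrays lay above the AdenoGFP arrays at some times and below at others. Cdkn2b, at 10.81 to 11.19 with AdenoCre and 10.92 to 11.21 with AdenoGFP, differed by -0.04 (95% interval -0.22 to 0.14). Cdkn2c differed by -0.17 (95% interval -0.36 to 0.01).

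**Figure D1:**
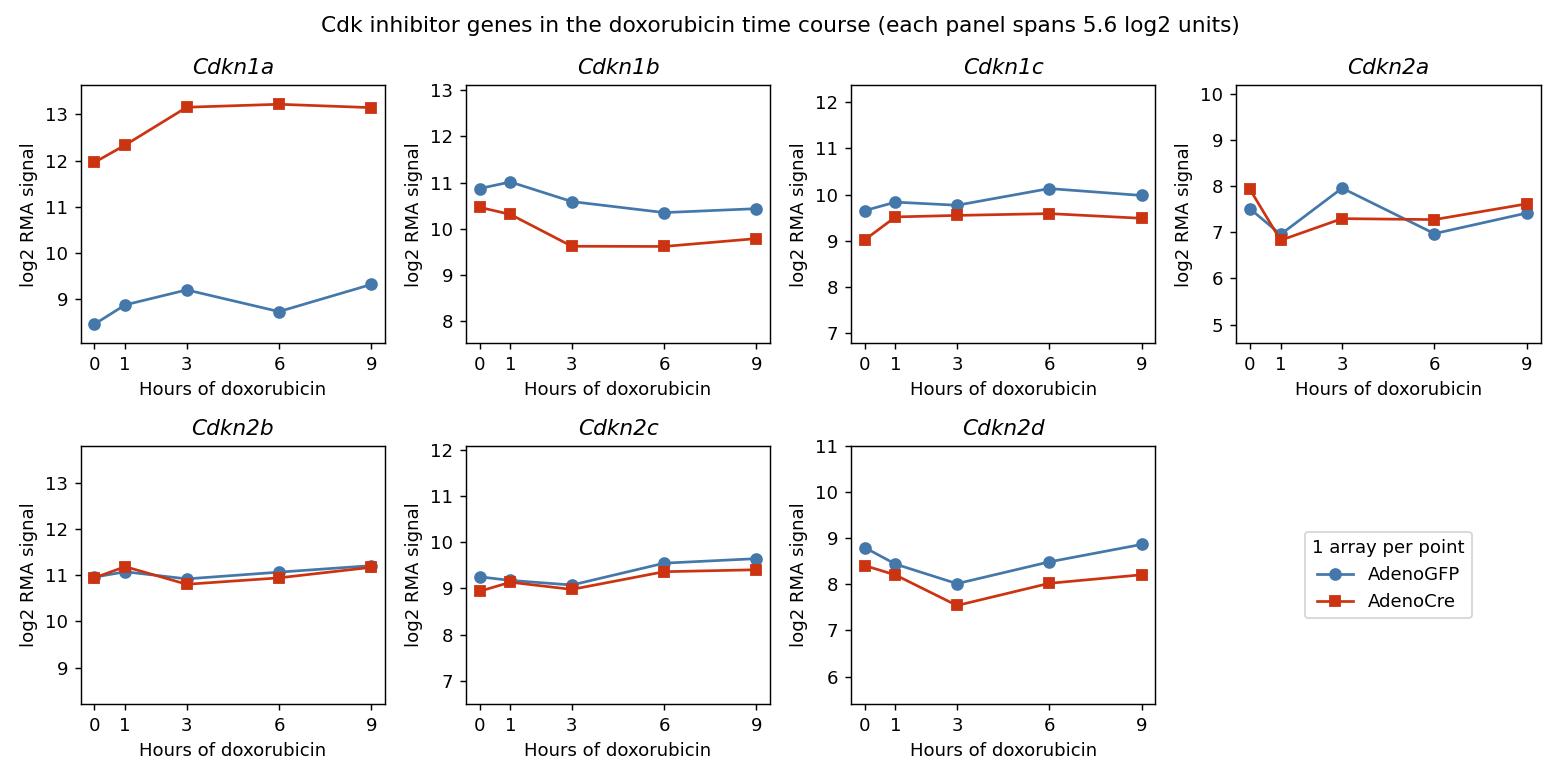
Log2 signal of the 7 inhibitor genes (y axes, each panel spanning the same number of log2 units) against hours of doxorubicin (x axes), for AdenoGFP (blue circles) and AdenoCre (red squares), with 1 array per point. The Cdkn1a series lie 3.85 apart on average, and in the other panels the lines lie close together or cross.

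The change per hour of doxorubicin was called for 0 of the 7 genes with AdenoCre (5.71% of all genes, 4.07% higher and 1.64% lower), 0 with AdenoGFP (0.00864%) and 0 for the difference between the slopes (0.181%). At an unadjusted p below 0.05 in limma there were 3, 1 and 0. The Cdkn1a slope with AdenoCre was 0.13 ± 0.04 per hour (adjusted p = 0.106), and 0.06 ± 0.04 with AdenoGFP (adjusted p = 0.543). Leaving out 1 pair of arrays moved the first between 0.085 and 0.21 per hour and the second between 0.031 and 0.078. The AdenoCre slope was called for the second Cdkn1a probe set at 0.16 per hour (adjusted p = 0.0462) and with time as log2(hours + 1) (adjusted p = 0.0349). The slope of Cdkn1b with AdenoCre was -0.08 ± 0.03 per hour (adjusted p = 0.180), against -0.13 ± 0.02 (adjusted p = 0.0169) for its second probe set, which lies between 3.95 and 5.39 in this experiment, around the expression limit.

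With siP53, Cdkn1a fell in both siRNA experiments and Cdkn1b rose in both, the reverse of their directions with AdenoCre. In lincP21KD 1 inhibitor gene rose, 2 fell and 4 were not called, where 14.4% of all genes were called (7.82% higher, 6.55% lower). Cdkn1a stood at 10.53, 10.31 and 10.68 with siP53 against 12.48 and 12.68 with control siRNA. The groups lie far apart, and the gene fell by 2.07 ± 0.11 (adjusted p = 5.46e-06), which is 4.21-fold. Cdkn1c stood at 5.85, 5.99 and 5.91 against 6.40 and 6.45, without overlap, and fell by 0.51 ± 0.08 (adjusted p = 0.00275). These levels are low, since the median of all probe sets was 5.55 to 5.66 on the lincP21KD arrays.

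Cdkn1b in lincP21KD stood at 10.82, 11.17 and 10.99 with siP53 and at 10.66 and 10.50 with control siRNA. The groups do not overlap, and it rose by 0.41 ± 0.11 (adjusted p = 0.0291). That call was lost without control replicate 1 (0.49, adjusted p = 0.0811), control replicate 2 (0.33, adjusted p = 0.216), siP53 replicate 2 (0.32, adjusted p = 0.0747) or siP53 replicate 3 (0.41, adjusted p = 0.0633), and for the second probe set (0.38, adjusted p = 0.124). Cdkn2d was at 9.21, 9.16 and 8.74 against 8.60 and 8.59, a difference of 0.44 ± 0.15 (adjusted p = 0.0859) that was called without siP53 replicate 3 (0.59, adjusted p = 0.0193). Cdkn2a differed by 0.28 (95% interval -0.06 to 0.63), Cdkn2b by -0.08 (-0.29 to 0.13) and Cdkn2c by 0.02 (-0.23 to 0.27). The groups of Cdkn2a and Cdkn2d, which were not called, did not overlap either.

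In hnRNPKKD siP53 was followed by a rise of 2 inhibitor genes and a fall of 3, where 41.8% of all genes were called (21% higher, 20.7% lower). Cdkn1a stood at 10.52, 11.41 and 10.61 with siP53 and at 13.53, 13.43 and 13.51 with control siRNA. All 3 siP53 arrays lie below the controls, replicate 2 least so, and the gene fell by 2.64 ± 0.18 (adjusted p = 5.27e-07), which is 6.23-fold. Without replicate 2 it was -2.92 (adjusted p = 2.18e-10). Cdkn1b stood at 10.16, 9.35 and 10.31 against 9.21, 8.78 and 9.12, without overlap, and rose by 0.90 ± 0.22 (adjusted p = 0.00541). Its second probe set gave 0.49 (adjusted p = 0.0607). Cdkn1c, at 8.24, 8.16 and 8.31 against 7.68, 7.63 and 7.54, rose by 0.62 ± 0.10 (adjusted p = 0.000279), whereas it fell with the same siRNA target in lincP21KD.

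Cdkn2b, an INK4 gene known to respond to TGF-beta, stood at 11.60, 11.72 and 11.32 with siP53 in hnRNPKKD against 12.58, 12.44 and 12.46. The groups do not overlap, and it fell by 0.94 ± 0.10 (adjusted p = 1.52e-05). Cdkn2c, at 8.94, 9.19 and 8.91 against 9.46, 9.47 and 9.53, fell by 0.47 ± 0.11 (adjusted p = 0.00438). Cdkn2a spread widely with siP53, at 9.55, 10.25 and 8.67 against 9.59, 10.12 and 9.90. Its difference of -0.38 ± 0.32 (adjusted p = 0.374) became -0.76 (adjusted p = 0.0254) without siP53 replicate 2 and 0.03 (adjusted p = 0.938) without replicate 3. Cdkn2d, at 8.20, 8.81 and 7.46 against 7.38, 7.99 and 7.65, differed by 0.48 ± 0.27 (adjusted p = 0.177), which became 0.16 (adjusted p = 0.565) without siP53 replicate 2 and 0.83 (adjusted p = 0.0103) without replicate 3.

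**Figure D2:**
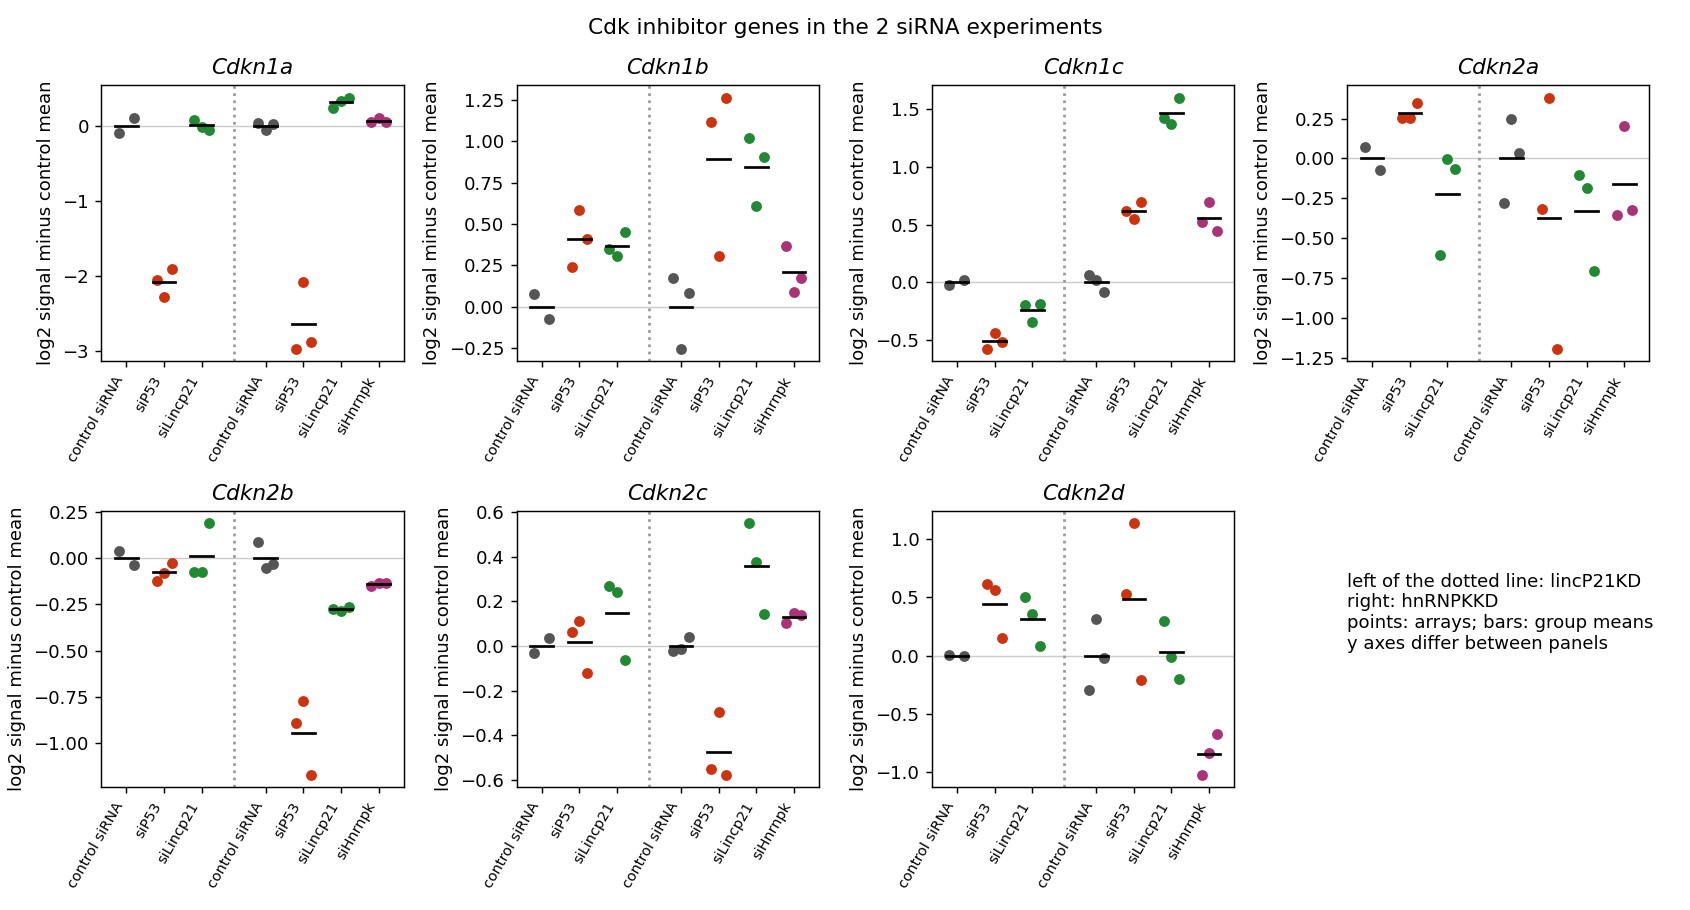
Log2 signal of each array minus the mean of its control siRNA group (y axes, which differ between panels) for each siRNA (x axes), with lincP21KD left and hnRNPKKD right of the dotted line. Points are arrays and bars group means: Cdkn1a is lowest with siP53 in both experiments, and Cdkn1c lies below its controls in lincP21KD and above them in hnRNPKKD.

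With siLincp21, Cdkn1a, the neighbour of the lincRNA-p21 gene, was not called in either experiment. In lincP21KD it stood at 12.66, 12.57 and 12.52 against 12.48 and 12.68. The groups overlap, and the difference was 0.01 ± 0.11 (95% interval -0.24 to 0.26, adjusted p = 0.979). In hnRNPKKD it stood at 13.73, 13.81 and 13.86 against 13.53, 13.43 and 13.51, all 3 above the controls, with a difference of 0.31 ± 0.18 (95% interval -0.07 to 0.70, adjusted p = 0.205). All groups of that experiment share 1 estimate of the spread, and without siP53 replicate 2 the same difference was called (adjusted p = 0.00468).

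Of the other inhibitor genes in lincP21KD, 1 rose with siLincp21 and 0 fell, where 13.4% of all genes were called (8.45% higher, 4.93% lower). Cdkn1b stood at 10.93, 10.89 and 11.03 against 10.66 and 10.50, without overlap, and rose by 0.37 ± 0.11 (adjusted p = 0.0466). That call was lost in 6 of the 8 fits that left out 1 array, namely without either control array (replicate 1, 0.45; replicate 2, 0.29), any siLincp21 array (replicate 1, 0.38; replicate 2, 0.40; replicate 3, 0.33) or siP53 replicate 3 (0.37). It was lost as well for the second probe set (0.32, adjusted p = 0.184), without a filter on low values (0.37), with quantile normalization (0.36) and with arrays centred on their medians (0.33). Cdkn1c, at 6.23, 6.08 and 6.24 against 6.40 and 6.45, differed by -0.24 ± 0.08 (adjusted p = 0.0773). The INK4 genes were not called, at -0.23 for Cdkn2a (95% interval -0.57 to 0.12), 0.01 for Cdkn2b (-0.20 to 0.22), 0.15 for Cdkn2c (-0.10 to 0.40) and 0.32 for Cdkn2d (-0.02 to 0.66).

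In hnRNPKKD siLincp21 was followed by a rise of 3 inhibitor genes and a fall of 0, where 31.6% of all genes were called (18.7% higher, 13% lower). Cdkn1c stood at 9.04, 8.99 and 9.22 with siLincp21 and at 7.68, 7.63 and 7.54 with control siRNA. The groups lie well apart, and the rise of 1.47 ± 0.10 (adjusted p = 1.15e-06) is 2.76-fold. Cdkn1b, at 10.06, 9.65 and 9.94 against 9.21, 8.78 and 9.12, rose by 0.84 ± 0.22 (adjusted p = 0.0101), and by 0.69 (adjusted p = 0.0176) on its second probe set.

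Cdkn2c, which binds CDK4 and CDK6, stood at 10.04, 9.86 and 9.63 with siLincp21 in hnRNPKKD against 9.46, 9.47 and 9.53, and rose by 0.36 ± 0.11 (adjusted p = 0.0268). The call was lost without siLincp21 replicate 1 (0.26) or 2 (0.35) and without control replicate 1 (0.34), 2 (0.35) or 3 (0.38), and with arrays centred on their medians (0.30). Cdkn2b, at 12.22, 12.21 and 12.23, lay below its controls at 12.58, 12.44 and 12.46 by 0.27 ± 0.10 (adjusted p = 0.0558). That difference was called without siP53 replicate 2 (adjusted p = 0.0197) or siP53 replicate 3 (adjusted p = 0.0143). Cdkn2a differed by -0.33 (95% interval -1.03 to 0.37) and Cdkn2d by 0.03 (-0.57 to 0.62).

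With siHnrnpk 1 inhibitor gene rose and 1 fell, where 29.2% of all genes were called (15.2% higher, 14% lower). Cdkn1c stood at 8.14, 8.31 and 8.06 against 7.68, 7.63 and 7.54, without overlap, and rose by 0.56 ± 0.10 (adjusted p = 0.00103). Cdkn2d stood at 6.65, 6.84 and 7.002 against 7.38, 7.99 and 7.65, also without overlap, and fell by 0.84 ± 0.27 (adjusted p = 0.0356). The Cdkn2d call was lost without any 1 siHnrnpk array (replicate 1, -0.76; replicate 2, -0.85; replicate 3, -0.93) and without control replicate 2 (-0.69) or 3 (-0.86). Cdkn1a, at 13.54, 13.60 and 13.54 against 13.53, 13.43 and 13.51, differed by 0.07 (95% interval -0.32 to 0.46). The intervals of the remaining differences ran from -0.26 to 0.68 for Cdkn1b, -0.86 to 0.54 for Cdkn2a, -0.36 to 0.08 for Cdkn2b and -0.11 to 0.37 for Cdkn2c. The groups of Cdkn1a, Cdkn2b and Cdkn2c, which were not called, did not overlap either.

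**Figure D3:**
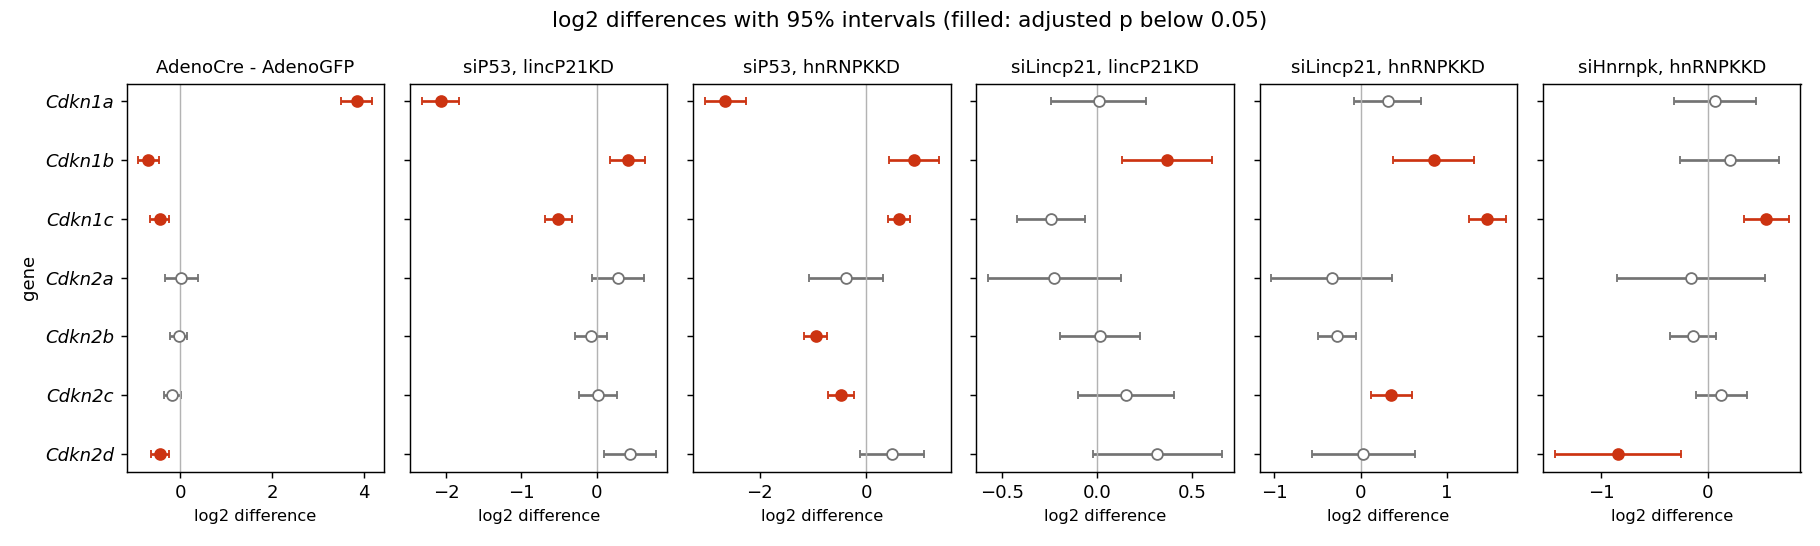
Log2 difference of each inhibitor gene (y axis) from its control group, 1 panel per comparison (x axes, log2 difference, scales differ), with 95% intervals from limma and filled points where the adjusted p is below 0.05. Cdkn1a lies at 3.85 with AdenoCre and at -2.07 and -2.64 with siP53, while its intervals with siLincp21 and siHnrnpk hold 0.

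The knockdowns of 1 experiment share their control arrays, so they were also compared with each other directly. In lincP21KD siP53 against siLincp21 gave 1 inhibitor gene higher and 2 lower, where 22.7% of all genes were called (10.1% higher, 12.6% lower). Cdkn1a was lower by a log2 difference of -2.08 ± 0.10, Cdkn1c by -0.27 ± 0.07 and Cdkn2a higher by 0.51 ± 0.14, and the adjusted p for Cdkn1c and Cdkn2a (0.0249 and 0.0264) went above 0.05 in 4 and 3 of the fits without 1 array. Those were the fits without siP53 replicate 1 (Cdkn1c -0.23, Cdkn2a 0.53), siP53 replicate 2 (Cdkn2a 0.53), siP53 replicate 3 (Cdkn1c -0.26, Cdkn2a 0.48), siLincp21 replicate 1 (Cdkn1c -0.25) and siLincp21 replicate 3 (Cdkn1c -0.24). The Cdkn1c call was also lost with arrays centred on their medians (-0.22, adjusted p = 0.0588) and with trended robust variances (-0.27, adjusted p = 0.0564). In hnRNPKKD 4 inhibitor genes were lower with siP53 than with siLincp21, where 41.9% of all genes were called (19% higher, 22.9% lower): Cdkn1a by -2.95 ± 0.18, Cdkn1c by -0.85 ± 0.10, Cdkn2c by -0.83 ± 0.11 and Cdkn2b by -0.67 ± 0.10.

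Against siHnrnpk, siP53 gave 2 inhibitor genes higher and 3 lower, where 48.9% of all genes were called (24.5% higher, 24.4% lower). Cdkn2d was higher by 1.33 ± 0.27 (adjusted p = 0.00153) and Cdkn1b by 0.69 ± 0.22 (adjusted p = 0.0189), and Cdkn1a, Cdkn2b and Cdkn2c were lower by -2.71, -0.81 and -0.60. The Cdkn1b call was lost without siP53 replicate 1 (0.58) or 3 (0.50) and without siHnrnpk replicate 2 (0.63) or 3 (0.67), and the second probe set gave 0.30 (adjusted p = 0.210). With siLincp21 against siHnrnpk 3 genes were higher, where 30.1% of all genes were called (16.9% higher, 13.2% lower): Cdkn1c by 0.91 ± 0.10, Cdkn2d by 0.87 ± 0.27 (adjusted p = 0.0299) and Cdkn1b by 0.64 ± 0.22 (adjusted p = 0.0420). The Cdkn2d call was lost without replicate 1 or 2 of either group (0.74 to 0.89). The Cdkn1b call was lost without any siHnrnpk array, siLincp21 replicate 1 or 3, or control replicate 3 (0.55 to 0.72), and for the second probe set (0.50, adjusted p = 0.0697).

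The same siRNA gave different responses of some inhibitor genes in the 2 experiments, which share no arrays. For siP53, where 15.8% of all genes were called (7.94% higher, 7.89% lower), 1 inhibitor gene had the higher difference in hnRNPKKD and 2 the lower. The Cdkn1c difference was higher in hnRNPKKD by 1.13 ± 0.13 (adjusted p = 2.5e-05), and that of Cdkn2b was lower by -0.87 ± 0.14 (adjusted p = 0.000599). The Cdkn2c difference was lower by -0.49 ± 0.16 (adjusted p = 0.0499), a call lost in 15 of the 20 fits that left out 1 array, with values from -0.58 to -0.44, and without a filter on low values (-0.49) or with quantile or median scaling (both -0.48). For Cdkn1a the difference between experiments was -0.57 ± 0.24 (adjusted p = 0.118), or -0.85 (adjusted p = 0.000191) without hnRNPKKD siP53 replicate 2. Without that array Cdkn1b (0.78, adjusted p = 0.00475) and Cdkn2a (-1.04, adjusted p = 0.0232) were called as well. For siLincp21, where 8.99% of all genes were called (5.1% higher, 3.89% lower), Cdkn1c was the 1 inhibitor gene called, higher in hnRNPKKD by 1.71 ± 0.13 (adjusted p = 3.22e-07). The labels give both experiments the same times of virus and siRNA and the same doxorubicin, but their control siRNAs have different names. Whether the controls are the same reagent is not stated. The parts of control siRNA and batch in these differences were not tested.

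The second probe sets of Cdkn1a and Cdkn1b differ in how they follow the first. For Cdkn1a the second probe set stood at 8.64, 10.99 and 7.77 on the hnRNPKKD siP53 arrays, where the first stood at 10.52, 11.41 and 10.61. It placed replicate 2 far above the other 2 arrays, and by it the gene fell by 3.69 ± 0.57 (adjusted p = 0.000386), more than by the first and with a larger error. In the time course it gave a rise of 3.91 ± 0.15 with AdenoCre, and in lincP21KD the gene fell by 2.18 ± 0.15 with siP53. The second Cdkn1b probe set has a mean of 5.63, not far above the expression limit, and by it the gene fell by 0.57 ± 0.16 (adjusted p = 0.0452) with AdenoCre.

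**Figure D4:**
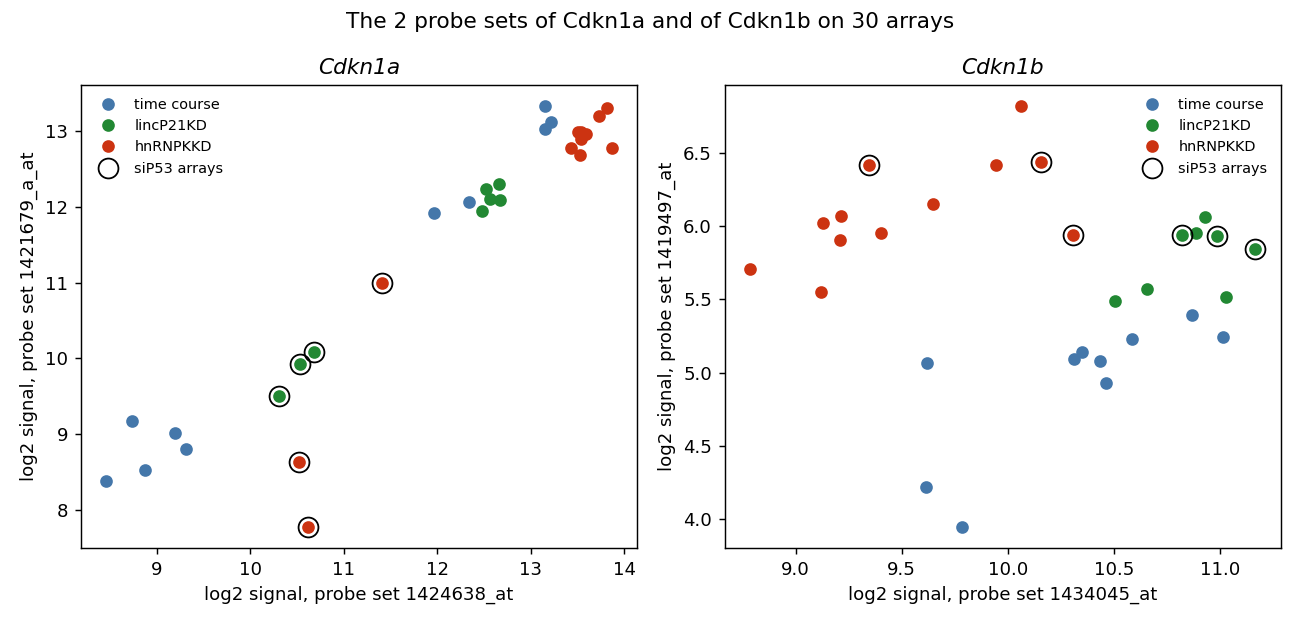
Log2 signal of the second probe set (y axes) against the first (x axes) for Cdkn1a and Cdkn1b on 30 arrays, coloured by experiment, with siP53 arrays circled. The Cdkn1a probe sets rise together except that 2 of the hnRNPKKD siP53 arrays lie lower on the second (8.64 and 7.77), and the Cdkn1b probe sets follow each other less closely.

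Cdkn1a moved with most of the other p53 target genes of a list of 32. That list was chosen with earlier results of these data known, so the shares below describe it and test nothing. With AdenoCre 22 of the 32 rose and 0 fell (68.8% called, against 21.2% of all genes), with a median difference of 1.65 against 0.05 over all genes tested. With siP53 23 fell and 2 rose in lincP21KD (78.1% against 14.4%, median -1.02), and 24 fell and 1 rose in hnRNPKKD (78.1% against 41.8%, median -1.70). Eda2r, a member of the TNF receptor family, rose by 4.49 with AdenoCre, more than Cdkn1a. Perp, a p53 target with a role in apoptosis and in desmosomes, fell by 2.37 and 3.27 with siP53. With siLincp21 2 rose and 3 fell in lincP21KD (15.6% against 13.4%, median 0.02), and 12 rose and 3 fell in hnRNPKKD (46.9% against 31.6%, median 0.24). With siHnrnpk 8 rose and 3 fell (34.4% against 29.2%, median 0.25). The 6 genes with the highest Pearson correlation with Cdkn1a over the 30 arrays, each centred on its mean in every experiment, were Ephx1 (0.98), Eda2r (0.98), Trp53inp1 (0.98), Ak1 (0.97), Zmat3 (0.97) and Psrc1 (0.96), and 5 of these 6 are in the list. The arrays share their siRNA and virus groups, so these values describe the groups as much as the arrays.

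**Figure D5:**
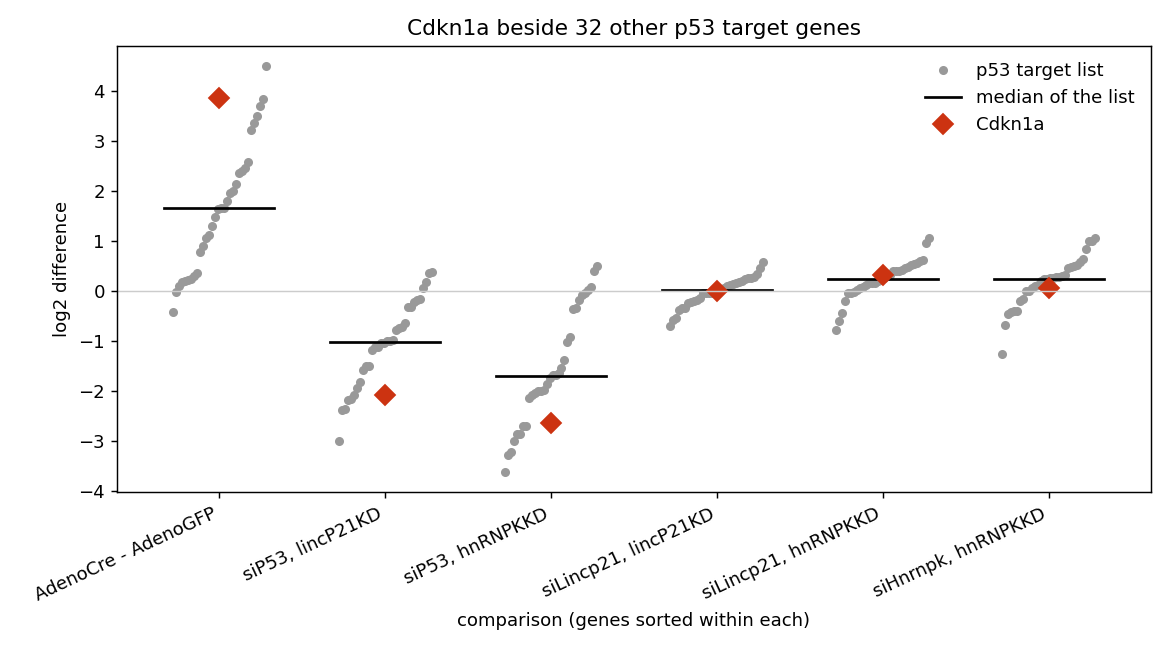
Log2 differences (y axis) of 32 p53 target genes (grey points, sorted within each comparison), their median (bar) and Cdkn1a (red diamond) in 6 comparisons (x axis). Cdkn1a lies beyond the list's median with AdenoCre (3.85 against 1.65) and with siP53 (-2.07 against -1.02 and -2.64 against -1.70), and between 0.01 and 0.31 in the other 3.

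The other inhibitor genes had other neighbours in pattern by the same measure. Those of Cdkn1b were Foxd1 (0.90), Lrp6 (0.90) and Pdgfrb (0.89), and those of Cdkn1c were Man2a2 (0.83), Zfp36l1 (0.81) and Il1rl2 (0.80), although within lincP21KD alone Man2a2 gave -0.29 and Il1rl2 gave -0.48. Cdkn2b was nearest to Nipsnap1 (0.91), Arg2 (0.91) and Slc22a23 (0.89), and Cdkn2d to Pimreg (0.91), Utp6 (0.85) and Nt5dc2 (0.84). The Cdkn2b values were high within hnRNPKKD (0.99 for Nipsnap1, 0.97 for Arg2 and 0.94 for Slc22a23) and lower in the time course (0.32, 0.27 and 0.49) and in lincP21KD (0.47, 0.40 and 0.78). Within the time course alone Nt5dc2 gave 0.47 and Utp6 0.64, while Pimreg gave 0.88 or more in each experiment. Cdkn2c was nearest to Mzt2 (0.85, and 0.56 within lincP21KD), and Cdkn2a, at 0.73 with Atp5b (0.40 within the time course), had the lowest best value. Among the inhibitor genes themselves Cdkn1a and Cdkn1b had a correlation of -0.66 and Cdkn2b and Cdkn2c one of 0.62.

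Kinases and cyclins of the cell cycle were described from a list of 15 genes, of which 14 were tested. The list also holds Cdk7, Ccnh and Mnat1, which form the CDK-activating kinase and are not known as targets of these inhibitors. With AdenoCre 2 rose and 3 fell (35.7% of the 14 called, against 21.2% of all genes). The cyclin D genes Ccnd2 and Ccnd1 rose by 0.42 (adjusted p = 0.00809) and 0.29 (adjusted p = 0.0331). Ccnb2 fell by 0.45 (adjusted p = 0.0199) and Cdk2 by 0.43 (adjusted p = 0.0246). Ccne2, the cyclin E partner of CDK2, fell by 0.70 (adjusted p = 0.0376). With siP53 1 rose and 0 fell in lincP21KD (7.14% against 14.4%), and 7 rose and 2 fell in hnRNPKKD (64.3% against 41.8%). Ccnb2 rose in both, by 0.41 (adjusted p = 0.0202) and 0.73 (adjusted p = 0.000125). In hnRNPKKD Cdk6 rose by 0.96 (adjusted p = 6.63e-05) and Ccne2 by 0.99 (adjusted p = 0.000221). The 2 that fell there were Cdk2, by 0.46 (adjusted p = 0.00112), and Ccnd1, by 0.38 (adjusted p = 0.00511). Cdk6 also rose in hnRNPKKD with siLincp21, by 0.92 (adjusted p = 0.000163), and with siHnrnpk, by 0.59 (adjusted p = 0.00340). With siP53 in lincP21KD it was not called (0.23, adjusted p = 0.158). With siLincp21 1 rose and 2 fell in lincP21KD (21.4% against 13.4%) and 2 rose and 4 fell in hnRNPKKD (42.9% against 31.6%). Ccnd2, a cyclin D, rose in both, by 0.65 (adjusted p = 0.00237) and 0.75 (adjusted p = 0.000518). With siHnrnpk 2 rose and 5 fell (50% against 29.2%), including Cdk4 by 0.85 (adjusted p = 0.00300) and Ccne2 by 1.12 (adjusted p = 0.000161). Cdk2, lower with AdenoCre, thus fell with each siRNA of hnRNPKKD, by 0.44 with siLincp21 (adjusted p = 0.00202) and 0.51 with siHnrnpk (adjusted p = 0.000835). With siP53 in lincP21KD it was not called (-0.30, adjusted p = 0.132).

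Of 16 genes of the retinoblastoma and E2F families and their partners, all tested, 1 rose and 3 fell with AdenoCre (25% called, against 21.2% of all genes). Lin54 fell by 0.87 (adjusted p = 0.00851), Lin9 by 0.78 (adjusted p = 0.0199) and Rbl1 by 0.49 (adjusted p = 0.0223). Rb1, the retinoblastoma gene, rose by 0.97 (adjusted p = 0.0227) with AdenoCre, fell by 0.80 (adjusted p = 0.00134) with siP53 in lincP21KD, and differed by -0.18 (adjusted p = 0.245) in hnRNPKKD. It rose with siLincp21 and siHnrnpk in hnRNPKKD, by 1.85 (adjusted p = 1e-06) and 1.53 (adjusted p = 4.08e-06). With siP53 2 rose and 2 fell in lincP21KD (25% against 14.4%) and 7 rose and 2 fell in hnRNPKKD (56.2% against 41.8%). E2f7, an E2F that represses transcription, rose in both, by 0.50 (adjusted p = 0.00527) and 2.06 (adjusted p = 4.53e-06). E2f6 also rose in both, by 0.42 (adjusted p = 0.00748) and 1.26 (adjusted p = 9.32e-06). E2f5 fell in both, by 0.71 (adjusted p = 0.000335) and 1.28 (adjusted p = 1.13e-05). With siLincp21 0 rose and 1 fell in lincP21KD (6.25% against 13.4%) and 2 rose and 3 fell in hnRNPKKD (31.2% against 31.6%), and with siHnrnpk 4 rose and 1 fell (31.2% against 29.2%). The shares with AdenoCre, and with siLincp21 and siHnrnpk in hnRNPKKD, are near those over all genes.

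Genes that act on the inhibitors, by turnover of the proteins or by control of their transcription, formed a list of 31, of which 28 were tested. With AdenoCre 5 rose and 3 fell (28.6% called, against 21.2% of all genes). Dtl, which directs p21 to degradation, fell by 0.78 (adjusted p = 0.00702) with AdenoCre and rose with siP53 by 0.36 (adjusted p = 0.00994) in lincP21KD and 1.48 (adjusted p = 4.36e-05) in hnRNPKKD. Foxo3, a transcription factor that activates Cdkn1b, rose by 1.02 (adjusted p = 0.00280) with AdenoCre and fell with siP53 by 0.59 (adjusted p = 0.00153) and 0.87 (adjusted p = 0.000267). These directions are opposite to those of Cdkn1b itself, and a link between Foxo3 and Cdkn1b was not tested.

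With siP53 1 of the 28 rose and 2 fell in lincP21KD (10.7% against 14.4% of all genes), and 8 rose and 4 fell in hnRNPKKD (42.9% against 41.8%), shares near those over all genes. With siLincp21 0 rose and 2 fell in lincP21KD (7.14% against 13.4%) and 4 rose and 6 fell in hnRNPKKD (35.7% against 31.6%). Skp2, the ubiquitin ligase subunit that directs p27 protein to degradation, fell with siLincp21 in both, by 0.99 (adjusted p = 0.000608) and 1.55 (adjusted p = 1.07e-05). Cdkn1b RNA rose in both of these comparisons, although its call in lincP21KD was lost for the second probe set and in most fits without 1 array. A link between Skp2 and Cdkn1b RNA was not tested. With siHnrnpk 4 rose and 5 fell (32.1% against 29.2%), Skp2 rose by 0.50 (adjusted p = 0.0204), and Klf4, a transcription factor that can activate Cdkn1a, rose by 1.22 (adjusted p = 0.000102).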

How the data were processed

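RNA of mouse embryonic fibroblasts was measured on 30 Affymetrix arrays of 45101 probe sets. The authors deposited log2 values made with RMA, per the submitters' processing notes (version not given in the sources used here). RMA subtracts background, makes the distributions of arrays processed together alike and summarises probes, so a global shift in RNA would not show. The array medians of all probe sets were 4.98 to 5.03 in the time course, 5.55 to 5.66 in lincP21KD and 4.83 to 4.91 in hnRNPKKD. Levels are therefore not on a common scale across the experiments, although the expression limit was set over all 30 arrays. Gene symbols came from the platform annotation: 34958 probe sets carry 1 symbol, 932 several and 9211 none, and only the first kind was used. The genome build was not given in the sources used here. A tumour cell line experiment of the same series was not used here.

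Per gene the probe set with the highest mean was kept, and genes under the 40% quantile (4.92) were left out. Each experiment was fitted with limma 3.58.1 in R 4.3.3 (eBayes, Benjamini-Hochberg over 11580 genes): the virus difference with time as a block, slopes per hour per virus, siRNA group means, and differences between experiments in a joint fit. Code was tested on simulated data. The members, the gene lists and the rule for naming genes (in each list, genes with the smallest adjusted p and those a sentence turns on, up to 6) were chosen with earlier results of these data known. Not every gene under that rule is named, so some genes left out have a smaller adjusted p than named genes of their list. The p53 consensus was searched before the spaced CATG pair, which was added after the Cdkn1a promoter had been read.

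Replicate numbers are shared across siRNA groups, but the labels do not say that they mark a shared culture. Same-numbered arrays of siHnrnpk and control deviated together (correlations 0.19 to 0.23 over genes), which was taken as pairing, from the data and not the design. No other comparison with a control had all its pairs above 0.1. Between siLincp21 and siP53 in hnRNPKKD the correlations were -0.03, 0.66 and 0.72 for replicates 1, 2 and 3. Arrays with different numbers were not correlated for reference. The main fits paired the arrays in no siRNA comparison, that of siHnrnpk with control included, and the replicate block was an alternative only. Alternatives were the mean of probe sets, no filter or a 60% filter, quantile or median scaling, trended robust variances, array weights, the replicate block, and leaving out each array or time.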

Additional observations from a re-analysis of the deposited data

Results flagged for a closer look

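4 differences between the lincP21KD and hnRNPKKD experiments in the response of an inhibitor gene to the same siRNA passed limma's test of the difference itself. For Cdkn1c with siP53 it was 1.13 ± 0.13 (hnRNPKKD minus lincP21KD, log2, adjusted p = 2.5e-05), from a fall of 0.51 in lincP21KD and a rise of 0.62 in hnRNPKKD. For Cdkn1c with siLincp21 it was 1.71 ± 0.13 (adjusted p = 3.22e-07), from a difference of -0.24 that was not called and a rise of 1.47. Over all alternatives the adjusted p stayed below 0.05 for both.

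For Cdkn2b with siP53 it was -0.87 ± 0.14 (adjusted p = 0.000599), from a difference of -0.08 that was not called and a fall of 0.94. For Cdkn2c with siP53 it was -0.49 ± 0.16 (adjusted p = 0.0499), and most fits without 1 array lost that call. The labels name them as separate experiments whose control siRNAs have different names, and the parts of control siRNA and batch were not tested. Cdkn1c was low in lincP21KD, at 5.85 to 6.45, where the array medians of all probe sets were 5.55 to 5.66. Its control mean in hnRNPKKD was 7.62, where these array medians were 4.83 to 4.91. The Cdkn1c differences thus set a gene of low signal against one of higher signal.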

How the results depend on the processing

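Over 92 results of inhibitor genes and 1701 alternative fits, 1537 kept direction and side of the threshold, 74 lost a call, 33 gained one and 57 turned the sign of a value that was not called. The cause of these changes was not tested. Each siRNA group holds 2 or 3 arrays and each virus and time 1, which limits the precision, and where leaving out a control array left 1 in lincP21KD, that array was assumed to vary like the other groups. In some fits the array weights stopped before converging, as limma warned, and their very high counts are given for completeness. Centring arrays on their medians moved the median virus difference of all genes from 0.05 to -0.06 and the share of higher genes among those called from 67.7% to 45.5% (51.6% with quantile normalization). It moved that share from 63.1% to 49.3% for siLincp21 in lincP21KD and from 44.5% to 58.7% for siP53 against siLincp21 there.

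The fit with the replicate number as a block changed no call for siHnrnpk, the comparison with a control in which the numbers were taken to pair the arrays. With quantile normalization the call was lost for Cdkn1b 0.36 (siLincp21 in lincP21KD) and Cdkn2c -0.48 (siP53 between the experiments). With quantile normalization a call was gained for Cdkn1c -0.26 (siLincp21 in lincP21KD) and Cdkn2b -0.28 (siLincp21 in hnRNPKKD). With quantile normalization the sign of an uncalled value turned for Cdkn2a -0.10 (the virus difference), Cdkn2c 0.0021 (the slope difference), Cdkn1a -0.0058 (siLincp21 in lincP21KD) and Cdkn2d -0.046 (siLincp21 in hnRNPKKD). With arrays centred on their medians the call was lost for Cdkn1b 0.33 (siLincp21 in lincP21KD), Cdkn2c 0.30 (siLincp21 in hnRNPKKD), Cdkn2c -0.48 (siP53 between the experiments) and Cdkn1c -0.22 (siP53 against siLincp21 in lincP21KD). With arrays centred on their medians a call was gained for Cdkn2b -0.33 (siLincp21 in hnRNPKKD). With arrays centred on their medians the sign of an uncalled value turned for Cdkn2a -0.077 (the virus difference), Cdkn1a -0.036 and Cdkn2b -0.031 (siLincp21 in lincP21KD) and Cdkn2d -0.024 (siLincp21 in hnRNPKKD). With array weights a call was gained for Cdkn2d 0.44 (siP53 in lincP21KD), Cdkn1c -0.25 and Cdkn2d 0.41 (siLincp21 in lincP21KD), Cdkn2a -0.34 and Cdkn2d 0.53 (siP53 in hnRNPKKD) and Cdkn1a 0.27 and Cdkn2b -0.26 (siLincp21 in hnRNPKKD). The same held for Cdkn1a -0.90, Cdkn1b 0.68 and Cdkn2a -0.62 (siP53 between the experiments) and Cdkn1b 0.52 (siLincp21 between the experiments). With array weights the sign of an uncalled value turned for Cdkn2a -0.24 (the virus difference), Cdkn2d 0.0069 (the AdenoCre slope), Cdkn2a 0.0014 and Cdkn2d -0.010 (the AdenoGFP slope) and Cdkn2c 0.016 and Cdkn2d 0.017 (the slope difference). The same held for Cdkn2b -0.052 (siLincp21 in lincP21KD) and Cdkn2a 0.12 (siLincp21 between the experiments). Without the time block the call was lost for Cdkn2d -0.44 (the virus difference). With the mean of a gene's probe sets a call was gained for Cdkn1a 0.14 and Cdkn1b -0.11 (the AdenoCre slope) and Cdkn2b -0.27 (siLincp21 in hnRNPKKD). With log2(hours + 1) a call was gained for Cdkn1a 0.40 (the AdenoCre slope). With log2(hours + 1) the sign of an uncalled value turned for Cdkn2a -0.044 (the AdenoCre slope), Cdkn2d -0.0060 (the AdenoGFP slope) and Cdkn1c 0.015, Cdkn2a -0.025 and Cdkn2c 0.0065 (the slope difference). With the second probe set a call was gained for Cdkn1a 0.16 (the AdenoCre slope). With the second probe set the call was lost for Cdkn1b 0.38 (siP53 in lincP21KD), Cdkn1b 0.32 (siLincp21 in lincP21KD), Cdkn1b 0.49 (siP53 in hnRNPKKD), Cdkn1b 0.30 (siP53 against siHnrnpk) and Cdkn1b 0.50 (siLincp21 against siHnrnpk). With the second probe set a call was gained for Cdkn1b -0.13 (the AdenoCre slope). With the replicate number as a block the call was lost for Cdkn1b 0.39 (siP53 in lincP21KD) and Cdkn1b 0.35 (siLincp21 in lincP21KD). With the replicate number as a block a call was gained for Cdkn2d 0.57 (siP53 in lincP21KD) and Cdkn2d 0.45 (siLincp21 in lincP21KD). With the replicate number as a block the sign of an uncalled value turned for Cdkn1a -0.021 and Cdkn2b -0.044 (siLincp21 in lincP21KD). Without a filter on low values the call was lost for Cdkn1b 0.37 (siLincp21 in lincP21KD) and Cdkn2c -0.49 (siP53 between the experiments). With the 60% filter a call was gained for Cdkn2b -0.27 (siLincp21 in hnRNPKKD). With trended robust variances a call was gained for Cdkn2b -0.27 (siLincp21 in hnRNPKKD) and lost for Cdkn1c -0.27 (siP53 against siLincp21 in lincP21KD).

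Leaving out 1 array or 1 pair of arrays at a time gave a range of values for each gene whose call or sign changed. For the virus difference these ranges were Cdkn2a -0.071 to 0.20 and Cdkn2d -0.50 to -0.39. For the AdenoCre slope these ranges were Cdkn1c -0.0025 to 0.072, Cdkn2a -0.046 to 0.084, Cdkn2b -0.021 to 0.027 and Cdkn2d -0.070 to 0.026 per hour. For the AdenoGFP slope these ranges were Cdkn2a -0.042 to 0.012 and Cdkn2d -0.045 to 0.071 per hour. For the slope difference these ranges were Cdkn1b -0.047 to 0.018, Cdkn1c -0.032 to 0.0031, Cdkn2a -0.0061 to 0.078 and Cdkn2c -0.026 to 0.0071 per hour. For siP53 in lincP21KD these ranges were Cdkn1b 0.32 to 0.50, Cdkn2c -0.028 to 0.087 and Cdkn2d 0.36 to 0.59. For siLincp21 in lincP21KD these ranges were Cdkn1a -0.092 to 0.11, Cdkn1b 0.29 to 0.45 and Cdkn2b -0.076 to 0.057. For siP53 in hnRNPKKD these ranges were Cdkn2a -0.76 to 0.032 and Cdkn2d 0.16 to 0.83. For siLincp21 in hnRNPKKD these ranges were Cdkn1a 0.28 to 0.35, Cdkn2b -0.30 to -0.23, Cdkn2c 0.26 to 0.46 and Cdkn2d -0.12 to 0.18. For siHnrnpk in hnRNPKKD these ranges were Cdkn2d -0.99 to -0.69. For siP53 between the experiments these ranges were Cdkn1a -0.85 to -0.40, Cdkn1b 0.30 to 0.78, Cdkn2a -1.04 to -0.25, Cdkn2c -0.58 to -0.44 and Cdkn2d -0.28 to 0.39. For siLincp21 between the experiments these ranges were Cdkn2a -0.30 to 0.080. For the direct comparisons they were Cdkn1c -0.32 to -0.23 and Cdkn2a 0.32 to 0.62 (siP53 against siLincp21 in lincP21KD), Cdkn1b 0.50 to 0.98 (siP53 against siHnrnpk), and Cdkn1b 0.55 to 0.76 and Cdkn2d 0.74 to 0.99 (siLincp21 against siHnrnpk).

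Without the time block the count of called genes was 1311 for the virus difference. With log2(hours + 1) the count of called genes was 432 for the AdenoCre slope, 0 for the AdenoGFP slope and 5 for the slope difference. With quantile normalization the count of called genes was 2 for the AdenoGFP slope and 36 for the slope difference. With arrays centred on their medians the count of called genes was 2 for the AdenoGFP slope and 45 for the slope difference. With the 60% filter the count of called genes was 5 for the slope difference. With trended robust variances the count of called genes was 36 for the slope difference. With array weights the count of called genes was 1 for the slope difference, 2621 for siLincp21 in lincP21KD, 8520 for siP53 in hnRNPKKD, 5731 for siLincp21 in hnRNPKKD and 5825 for siHnrnpk in hnRNPKKD. It was 8576 for siP53 against siLincp21 in hnRNPKKD, 9326 for siP53 against siHnrnpk in hnRNPKKD, 6007 for siLincp21 against siHnrnpk in hnRNPKKD, 6311 for siP53 between the experiments and 3166 for siLincp21 between the experiments. The virus difference called 1177 genes leaving out 3 h and 2048 leaving out 0 h. The AdenoCre slope called 199 genes leaving out 1 h and 383 leaving out 6 h. The AdenoGFP slope called 0 genes leaving out 0 h and in each other such fit. The slope difference called 0 genes leaving out 0 h and 18 leaving out 6 h. SiP53 in lincP21KD called 633 genes without lincP21KD control siRNA replicate 1 and 2149 without lincP21KD siLincp21 replicate 3. SiLincp21 in lincP21KD called 310 genes without lincP21KD control siRNA replicate 1 and 1481 without lincP21KD siLincp21 replicate 3. SiP53 against siLincp21 in lincP21KD called 1657 genes without lincP21KD siLincp21 replicate 1 and 2401 without lincP21KD siLincp21 replicate 3. SiP53 between the experiments called 936 genes without lincP21KD control siRNA replicate 2 and 4352 without hnRNPKKD siP53 replicate 2. SiLincp21 between the experiments called 397 genes without lincP21KD control siRNA replicate 2 and 1685 without hnRNPKKD siP53 replicate 2.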
